A study of Mus musculus with 12 samples.

Results

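The autophagy and mitophagy genes are 35 genes chosen by name, from the ULK kinase complex that starts autophagy to the receptors that hand mitochondria to it, and all 35 were found by their symbol among the 56748 genes of the count table. RNA was sequenced from whole livers of mice fasted for 24 h, 4 of each of 3 genotypes. SKO mice lacked Cpt2, the carnitine palmitoyltransferase that long-chain fatty acids need to be oxidised in mitochondria, in the liver, and DKO mice lacked both Atf3, a stress-inducible transcription factor, and Cpt2 there. Controls, called WT, were labelled as floxed for CPT1A, CPT1B and CPT2, with no KO allele of Atf3 named. The study made its liver KOs with an albumin-Cre transgene, which acts in hepatocytes, while RNA came from the whole organ. In such bulk RNA, fewer cells of a type and less RNA per cell cannot be told apart. The labels give no sex, age or batch per liver and do not say that livers of a genotype came from separate mice, so p-values measure the spread between these livers.

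In macroautophagy a membrane sheet, the phagophore, grows around cargo, closes to an autophagosome and fuses with a lysosome, where the cargo is digested. The ULK kinases start the process, a class III phosphatidylinositol 3-kinase marks the growing membrane, and a conjugation system resembling that of ubiquitin attaches proteins of the ATG8 family (LC3 and GABARAP) to it. Cargo receptors bind ATG8 proteins on one side and ubiquitin or an organelle on the other, and mitophagy is the branch that removes mitochondria. Fasting is a classical trigger of autophagy in the liver. Messenger RNA levels, which are what was measured here, do not give the rate at which cargo is digested, and SQSTM1 is itself degraded with the cargo it carries.

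Gene counts summed to 14710304 to 20030055 per liver (median 17908507). Levels are given as CPM, counts scaled by library size with TMM factors of the 12 livers, and each member had enough counts to be tested in each comparison. Cpt2 fell in SKO livers by 0.89 on the log2 scale and in DKO livers by 0.99. Atf3 had 17 to 39 counts in WT and 259 to 1056 in SKO livers, and 164, 177, 265 and 5 counts in DKO replicates 1 to 4; a count over the whole gene does not separate its deleted from its remaining exons. The library labelled DKO replicate 4 also differed from the other DKO livers in Xist counts (20855) and had 0 counts on 4 Y-linked genes, as SKO replicate 3 (18063 and 2) did among SKO livers, whereas the study's text calls the sequenced mice male. Its Cpt2 level, 102 CPM, was the lowest of the 12 livers (199 to 252 in WT), and whether its label is right was not tested. The summed CPM of 7 hepatocyte markers was 100960 in that liver, above the range of WT (78137 to 96887) and of SKO livers (45161 to 74683). Albumin (Alb) made up most of this sum, with 75381 CPM in DKO replicate 4 against 51954 to 65564 in WT livers. Ttr and Asgr1 were likewise higher in it than in any WT liver, and Cyp2e1 lay within the WT range. Apoa1, Cps1 and Hnf4a were lower in it than in any WT liver. Counts of called members in DKO livers are given with and without replicate 4.

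Of the 35 members, 12 (34.3%) differed between SKO and WT livers at the threshold used throughout, an adjusted p under 0.05 (quasi-likelihood test of edgeR, p-values adjusted after Benjamini and Hochberg over all genes, written BH-adjusted), where 32.1% of all genes tested did. The share of changed members was thus near the background. By direction, 8 members (22.9%) were lower against 15.4% of all genes, and 4 (11.4%) were higher against 16.7%. Those that fell were the kinase genes Ulk1 and Ulk2, the ULK complex subunit Atg101, the membrane genes Atg2b and Atg9a, the conjugation genes Atg3 and Atg5, and the receptor gene Nbr1. Those that rose were the receptor genes Sqstm1 and Optn, the lipid transfer gene Atg2a and the ATG8 gene Map1lc3a. The median log2 fold change was 0.12 over the members and 0.03 over all genes. The count of called members was 10 to 12 when any 1 of the 8 livers was left out, 11 of them without SKO replicate 3, and in each of these fits 4 members were higher. As a share that was 28.6 to 34.3% of the members, against 24.8 to 32.5% of all genes in these fits.

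**Figure D1:**
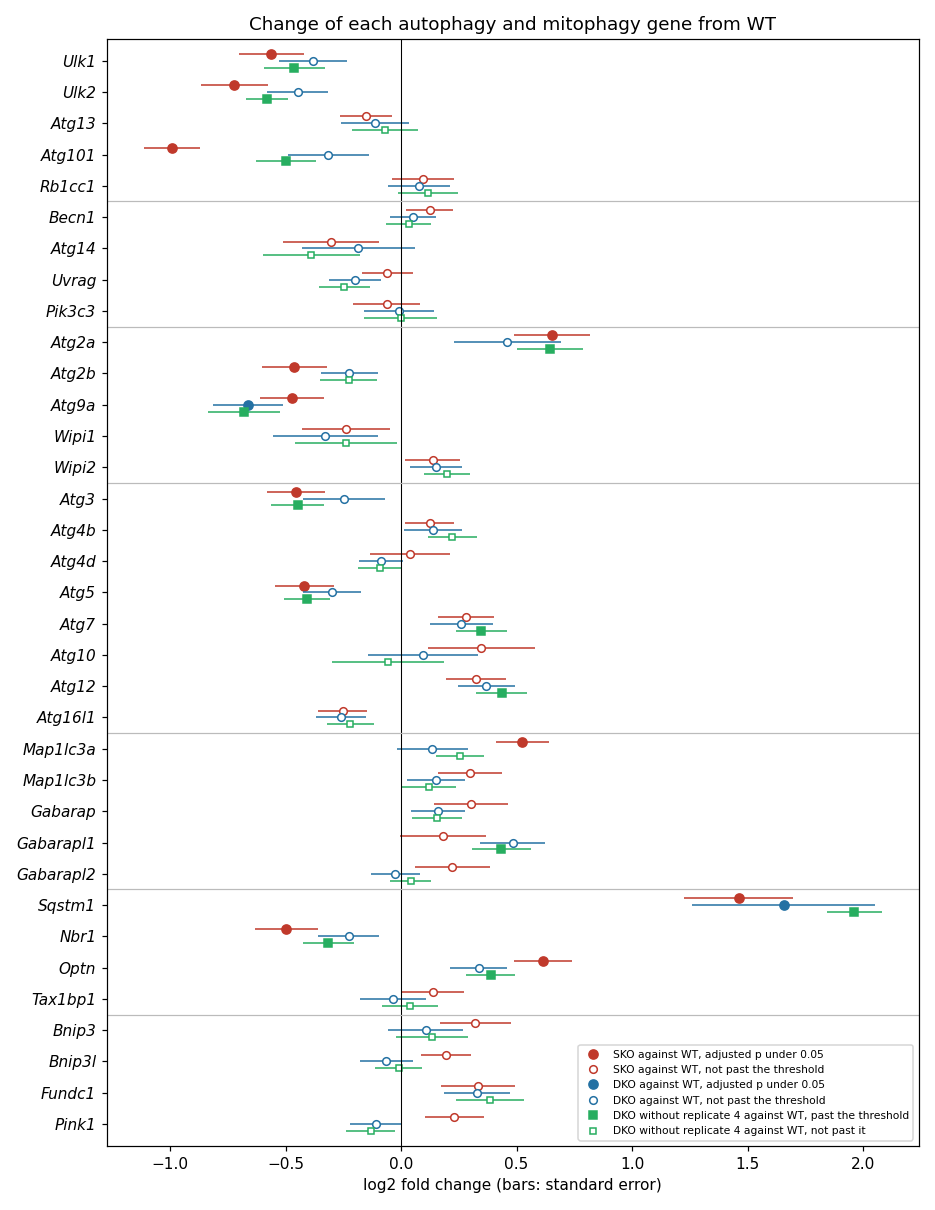
Log2 fold change of each of the 35 members from WT (x axis; bars are standard errors), in groups of one role separated by lines: ULK complex, class III kinase, membrane supply, conjugation, ATG8 family, cargo receptors and mitophagy. Filled symbols passed an adjusted p of 0.05 (12 in SKO, 2 in DKO, 13 in DKO without replicate 4), and Sqstm1 lies furthest to the right in all 3.

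The ULK complex joins a kinase, ULK1 or ULK2, to the scaffold RB1CC1 (FIP200) and to ATG13, which ATG101 stabilises. Of its 5 genes, 3 fell in SKO livers and 0 rose, where 15.4% of all genes fell. Atg101 (ENSMUSG00000037204) had 28.0, 30.4, 26.9 and 30.2 CPM in WT, 15.3, 15.3, 14.1 and 12.7 in SKO, and 19.6, 17.1, 24.3 and 31.1 in DKO replicates 1 to 4. The SKO livers lay close together and below each WT liver, DKO replicates 1 to 3 lay between both groups, and DKO replicate 4 lay above the WT livers. For Atg101 the log2 fold change in SKO livers was −0.99 (SE 0.12, edgeR BH-adjusted p = 1.12e-04), the smallest p-value of the members.

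Ulk2 (ENSMUSG00000004798) had 73.4, 70.4, 70.6 and 70.2 CPM in WT, 53.1, 38.4, 33.8 and 45.6 in SKO, and 48.9, 48.1, 45.1 and 65.1 in DKO livers. Its WT livers were nearly equal, and each KO liver lay below them, DKO replicate 4 least. It fell by 0.72 on the log2 scale in SKO livers (SE 0.14, edgeR BH-adjusted p = 0.00261). Ulk1 (ENSMUSG00000029512), the kinase that AMPK and mTORC1 phosphorylate, had 131, 161, 157 and 139 CPM in WT, 119, 91.4, 101 and 81.4 in SKO, and 114, 118, 86.1 and 129 in DKO livers. Again no KO liver reached the lowest WT liver, and the log2 fold change in SKO livers was −0.56 (SE 0.14, edgeR BH-adjusted p = 0.00961). Atg13 and the scaffold gene Rb1cc1 did not pass the test, with log2 fold changes of −0.15 and 0.10 in SKO livers.

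The promoters of both ULK complex genes that fell most are shown as the stretch from 250 bases before to 50 after the annotated start, in the gene's direction (RefSeq, build GRCm38.p6). Atg101 lies at chr15:101284051-101284350 on the plus strand and Ulk2 at chr11:61855043-61855342 on the minus strand. Capitals mark a match to TGACNNNGC, the core of the antioxidant response element, at position −17 of Ulk2, and none of the motifs searched was found in the Atg101 promoter.
Atg101: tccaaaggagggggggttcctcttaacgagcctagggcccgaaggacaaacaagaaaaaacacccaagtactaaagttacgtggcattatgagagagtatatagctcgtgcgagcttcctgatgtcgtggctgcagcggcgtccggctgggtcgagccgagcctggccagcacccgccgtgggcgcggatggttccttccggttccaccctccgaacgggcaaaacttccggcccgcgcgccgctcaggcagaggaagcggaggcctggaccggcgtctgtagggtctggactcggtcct
Ulk2: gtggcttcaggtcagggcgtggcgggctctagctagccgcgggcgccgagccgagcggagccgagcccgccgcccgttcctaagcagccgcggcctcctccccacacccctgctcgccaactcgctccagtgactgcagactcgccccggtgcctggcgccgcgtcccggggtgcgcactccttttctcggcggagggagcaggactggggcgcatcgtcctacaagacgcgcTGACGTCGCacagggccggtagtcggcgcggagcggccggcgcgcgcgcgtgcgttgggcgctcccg

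The class III kinase complex makes phosphatidylinositol 3-phosphate on the growing membrane. Its catalytic subunit gene Pik3c3 (VPS34) had log2 fold changes of −0.06 in SKO and −0.01 in DKO livers. Becn1, which encodes the scaffold Beclin 1, had 0.12 and 0.05, and Uvrag, whose product takes the complex to endosomes, had −0.06 and −0.20. Atg14, whose product directs the complex to autophagosomes, had −0.30 (SE 0.21) and −0.19 (SE 0.24). Its spread was wide already in WT livers, at 17.2, 19.4, 34.6 and 23.8 CPM. Of the 4 genes 0 passed the test in either comparison, against 32.1% of all genes in SKO and 10.5% in DKO livers. Becn1 was among the steadiest members, with 47.0 ± 1.13 CPM in the WT group (SD, n = 4), 50.6 ± 3.02 for SKO and 48.3 ± 4.32 for DKO.

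Membrane for the phagophore is brought by ATG9A, a scramblase on small vesicles, and by ATG2A and ATG2B, which carry lipids along a bridge to the endoplasmic reticulum, held in place by the phosphoinositide-binding WIPI proteins. The paralogs Atg2a and Atg2b moved in opposite directions in SKO livers. Atg2a (ENSMUSG00000024773) had 90.3, 115, 87.4 and 111 CPM in WT, 176, 192, 124 and 134 in SKO, and 180, 161, 128 and 80.6 in DKO livers. Each SKO liver and DKO replicates 1 to 3 exceeded the WT livers, and DKO replicate 4 was below them. Atg2a rose by 0.65 on the log2 scale in SKO livers (SE 0.17, edgeR BH-adjusted p = 0.0107), a call lost in 1 fit of all 12 livers (edgeR BH-adjusted p = 0.0549).

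Atg2b had 55.1, 59.4, 70.0 and 58.8 CPM in WT against 51.0, 34.1, 46.6 and 43.1 in SKO livers, which did not overlap, and 50.9, 59.8, 44.4 and 51.6 in DKO livers, which did. It fell by 0.46 on the log2 scale in SKO livers (SE 0.14, edgeR BH-adjusted p = 0.0259). This call was lost without WT replicate 2, WT replicate 3 or SKO replicate 4, with BH-adjusted p-values of 0.0501, 0.0724 and 0.0546 in edgeR. Atg9a (ENSMUSG00000033124) had 44.2, 49.7, 41.4 and 46.0 CPM in WT, 36.5, 30.4, 37.0 and 25.3 in SKO, and 32.6, 31.5, 20.3 and 29.2 in DKO livers. Each of the 8 KO livers lay below each WT liver, DKO replicate 4 included. Log2 fold changes of Atg9a were −0.47 in SKO (SE 0.14, edgeR BH-adjusted p = 0.0224) and −0.66 in DKO livers (SE 0.15, edgeR BH-adjusted p = 0.0293). The SKO call was lost without WT replicate 2 or 4 (edgeR BH-adjusted p = 0.0630 and 0.0508), and the DKO call without any liver other than DKO replicate 4 (0.0518 to 0.0866).

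Counts of both genes are uncertain where a neighbour on the other strand overlaps them, since the strand setting of the counting is not given in the sources used here. Atg9a overlaps Ankzf1, which had a mean of 506 counts per liver against 630 for Atg9a and a log2 fold change of −0.17 in SKO livers (edgeR BH-adjusted p = 0.385). Atg2b overlaps Gskip, with a mean of 212 counts against 926 and a log2 fold change of −0.78 (edgeR BH-adjusted p = 0.00956). Wipi1 and Wipi2 did not pass the test in any comparison. Their values in SKO livers were −0.24 and 0.14.

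The conjugation machinery resembles the chain of enzymes that attaches ubiquitin. ATG7 is the activating enzyme, ATG3 and ATG10 are the transfer enzymes for ATG8 proteins and for ATG12, the ATG12-ATG5-ATG16L1 complex directs the last step to the membrane, and the ATG4 proteases trim ATG8 proteins and release them again. Of its 8 genes, 2 fell in SKO livers, against 15.4% of all genes, and 0 rose. Atg3 (ENSMUSG00000022663) had 71.9, 62.3, 83.3 and 73.2 CPM in WT, 47.6, 53.6, 49.3 and 59.6 in SKO, and 50.3, 56.0, 52.8 and 84.1 in DKO livers. All SKO livers and DKO replicates 1 to 3 were below the WT range, whereas DKO replicate 4 had the highest value of the 12 livers. The fall in SKO livers was −0.45 on the log2 scale (SE 0.13, edgeR BH-adjusted p = 0.0172), and without WT replicate 3 or in 1 fit of all 12 livers it missed the threshold (edgeR BH-adjusted p = 0.0505 and 0.0539).

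Atg5 (ENSMUSG00000038160) had 61.7, 55.0, 54.1 and 56.5 CPM in WT, 41.9, 40.5, 35.8 and 50.2 in SKO, and 40.9, 46.1, 41.0 and 55.5 in DKO livers. SKO livers lay below WT livers, while DKO replicate 4 lay among the latter. It fell in SKO livers by 0.42 on the log2 scale (SE 0.13, edgeR BH-adjusted p = 0.0250). That call was the least stable of the 12, since it was lost without WT replicate 1, WT replicate 4 or SKO replicate 3 (edgeR BH-adjusted p = 0.0641, 0.0501 and 0.0561) and without a filter on low counts (0.0610). The other components did not pass. Atg7 had 0.28, Atg12 0.32 and Atg10 0.35 in SKO livers, and Atg16l1 had −0.25. The protease genes Atg4b and Atg4d had 0.12 and 0.04. Their overlap with the other-strand genes Thap4 and Kri1 makes both protease values uncertain.

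The Atg3 and Atg5 promoters are printed because both genes fell and both hold CACGTG, the E-box bound by TFEB and TFE3, which was present in 5 of the 30 promoters of the 28 members in the RefSeq table (16.7%, of Atg14, Atg3, Atg5, Atg7 and Bnip3) and in 7.15% of all 32851 promoters of the table. Of these 5, Atg14, Atg7 and Bnip3 did not pass the test in SKO livers. The promoters of Ulk1, Ulk2, Atg101, Atg2b, Atg9a and Nbr1, which fell too, had no match to CACGTG. Member promoters were richer in CpG than all promoters, as given below, so the shares compare unlike sequence. Capitals mark the matches. Atg3 (chr16:45158579-45158878, plus strand, GRCm38.p6) has CACGTG at positions −94 and −71, the latter inside the longer TCACGTGA, which 0.974% of all promoters hold. Atg5 (chr10:44268089-44268388, plus strand, GRCm38.p6) has CACGTG at −14 and the cyclic AMP response element TGACGTCA at −1, a motif of 1.79% of all promoters that no other member promoter had.
Atg3: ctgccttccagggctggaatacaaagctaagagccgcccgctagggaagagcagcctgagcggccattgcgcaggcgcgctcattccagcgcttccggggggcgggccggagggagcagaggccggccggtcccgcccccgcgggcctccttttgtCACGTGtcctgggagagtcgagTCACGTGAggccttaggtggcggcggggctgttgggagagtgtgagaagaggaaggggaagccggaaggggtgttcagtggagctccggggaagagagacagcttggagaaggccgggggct
Atg5: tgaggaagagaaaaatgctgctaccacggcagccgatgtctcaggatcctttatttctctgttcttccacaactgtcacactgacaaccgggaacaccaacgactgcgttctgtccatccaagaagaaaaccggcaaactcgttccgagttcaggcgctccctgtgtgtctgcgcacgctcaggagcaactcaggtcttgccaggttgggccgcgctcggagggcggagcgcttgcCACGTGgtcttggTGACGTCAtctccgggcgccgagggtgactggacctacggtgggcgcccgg

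ATG8 proteins sit on both faces of the phagophore and bind cargo receptors. All 5 of their genes had a positive value in SKO livers, as 7468 of the 14261 genes tested did, and 1 of the 5, Map1lc3a, passed the test, where 16.7% of all genes rose. Map1lc3a (ENSMUSG00000027602), which encodes LC3A, had 55.7, 57.6, 53.5 and 56.7 CPM in WT, 74.8, 93.7, 76.2 and 73.5 in SKO, and 66.2, 58.3, 74.4 and 44.5 in DKO livers. The WT livers were tightly grouped below the SKO livers, and the DKO livers ranged from below the WT group to within the SKO group. Its log2 fold change was 0.53 in SKO livers (SE 0.12, edgeR BH-adjusted p = 0.00499) and 0.13 in DKO livers (SE 0.15).

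Map1lc3b, the gene of the LC3B used as a marker of autophagosomes, had log2 fold changes of 0.30 (SE 0.14) in SKO and 0.15 (SE 0.13) in DKO livers. Its counts are uncertain too, since the other-strand gene Zcchc14, with a mean of 916 counts per liver against 3433, overlaps it. Gabarap had 0.30 and 0.16, and Gabarapl2 had 0.22 and −0.02. Gabarapl1 (ENSMUSG00000030161) had 306, 305, 373 and 295 CPM in WT, 417, 460, 260 and 297 in SKO, and 385, 494, 411 and 485 in DKO livers. Its SKO livers ranged from below to above the WT livers, whereas all 4 DKO livers lay above it. In DKO livers Gabarapl1 had a log2 fold change of 0.48 (SE 0.14, edgeR BH-adjusted p = 0.0584) and in SKO livers of 0.18 (SE 0.19).

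Of the 4 cargo receptor genes, 2 rose and 1 fell in SKO livers, where 16.7% of all genes rose and 15.4% fell. Sqstm1 (ENSMUSG00000015837), which encodes p62, a receptor that gathers ubiquitinated proteins into condensates and also binds the NRF2 inhibitor KEAP1, had 402, 407, 440 and 465 CPM in WT livers. In SKO livers it had 1116, 1461, 625 and 1464 CPM, and in DKO livers 1781, 1745, 1448 and 383 CPM. All SKO livers and DKO replicates 1 to 3 were far above the WT livers, SKO replicate 3 least, and DKO replicate 4 was below them. The log2 fold change was 1.46 in SKO livers (SE 0.24, edgeR BH-adjusted p = 6.86e-04) and 1.66 in DKO livers (SE 0.40, edgeR BH-adjusted p = 0.0324). Without DKO replicate 4 the latter was 1.96 (SE 0.12, edgeR BH-adjusted p = 1.02e-06), and without any other liver of the comparison the call was lost (edgeR BH-adjusted p = 0.0742 to 0.0960).

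Sqstm1 alone took 11.7 to 13.0% of all counts of the 35 members in WT livers and 16.9 to 31.5% in SKO livers. In DKO livers the share was 35.5, 34.1, 32.9 and 10.9%. The summed CPM of the other 34 genes was 2901 to 3293 (WT), 3067 to 3560 (SKO) and 2959 to 3366 (DKO), ranges that overlap.

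The promoter of Sqstm1, the member with the largest difference, lies at chr11:50210771-50211070 on the minus strand (RefSeq, GRCm38.p6). Capitals mark its only match, TATAAA, searched as the TATA box, which begins at position −1 and so spans the annotated start. That motif was added to the search after the sequence had been seen, and 13.6% of all promoters hold it. Whether it acts as a TATA box here was not tested. This window held no match to TGACNNNGC, which 4 member promoters had (13.3%, of Atg13, Map1lc3b, Tax1bp1 and Ulk2, against 12.4% of all promoters).
Sqstm1: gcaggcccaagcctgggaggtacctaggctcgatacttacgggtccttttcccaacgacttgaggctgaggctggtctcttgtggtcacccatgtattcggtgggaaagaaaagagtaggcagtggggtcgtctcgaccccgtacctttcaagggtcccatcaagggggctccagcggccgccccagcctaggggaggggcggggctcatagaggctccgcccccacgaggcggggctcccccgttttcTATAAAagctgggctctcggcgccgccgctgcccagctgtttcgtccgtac

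Each motif was searched on both strands, TCACGTGA always contains CACGTG, and a match to letters is not a bound site. The ATF4 element TGATGCAA, the FOXO site GTAAACA and the AP-1 site TGAGTCA had 0 matches in the 30 member promoters, against 0.895, 3.65 and 5.20% of all promoters. The member promoters had a median of 61.7% G and C and 21.5 CpG dinucleotides in 300 bases, where all promoters had 52.7% and 7. No promoter entry was matched for Atg12, Atg16l1, Becn1, Map1lc3a, Pik3c3, Rb1cc1 and Bnip3l.

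Optn (ENSMUSG00000026672), the gene of optineurin, a receptor for ubiquitin-coated mitochondria and bacteria, had 130, 151, 152 and 160 CPM in WT, 201, 239, 253 and 205 in SKO, and 189, 184, 207 and 164 in DKO livers. All KO livers were above the WT livers, DKO replicate 4 by the least. Optn had log2 fold changes of 0.61 in SKO (SE 0.12, edgeR BH-adjusted p = 0.00298) and 0.34 in DKO livers (SE 0.12, edgeR BH-adjusted p = 0.103), the latter 0.39 without DKO replicate 4 (SE 0.11, edgeR BH-adjusted p = 0.0152). Nbr1 (ENSMUSG00000017119), whose product works beside p62 on ubiquitinated proteins and in the removal of peroxisomes, went the other way, with 236, 280, 268 and 283 CPM in WT, 218, 154, 200 and 177 in SKO, and 215, 230, 194 and 264 in DKO livers. The SKO livers did not overlap the WT livers, and the log2 fold change was −0.50 (SE 0.14, edgeR BH-adjusted p = 0.0153). In DKO livers it was −0.23 (SE 0.13), and −0.32 without DKO replicate 4 (SE 0.11, edgeR BH-adjusted p = 0.0457). Tax1bp1, a further ubiquitin-binding receptor gene, had 0.14 (SE 0.14) in SKO and −0.04 (SE 0.14) in DKO livers.

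**Figure D2:**
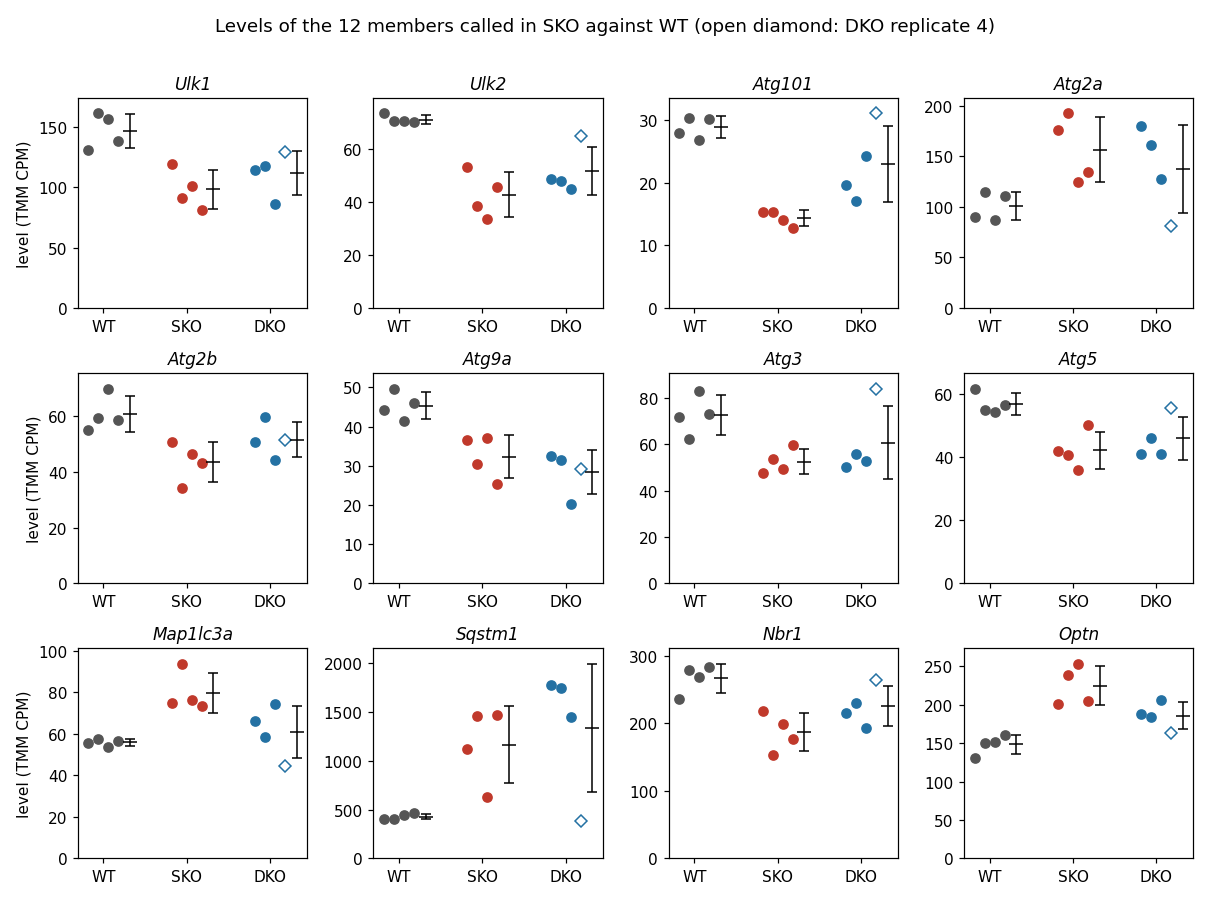
Level in TMM CPM (y axis, from 0) of the 12 members called in SKO against WT, 1 point per liver with the mean and SD of 4 livers beside it; the open diamond is DKO replicate 4. For Sqstm1 that liver had 383 CPM against 1448 to 1781 in the other DKO livers, and for Atg9a it lay with them below the WT livers.

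The mitophagy genes comprise 3 receptors of the outer mitochondrial membrane that bind ATG8 proteins directly (Bnip3, Bnip3l, which encodes NIX, and Fundc1) and Pink1, the kinase that accumulates on depolarised mitochondria. All 4 had positive values in SKO livers, as 7468 of the 14261 genes tested did, and 0 passed the test, against 32.1% of all genes. Bnip3 had a log2 fold change of 0.32 (SE 0.15, edgeR BH-adjusted p = 0.138), Fundc1 of 0.33 (SE 0.16, edgeR BH-adjusted p = 0.140), Bnip3l of 0.19 (SE 0.11) and Pink1 of 0.23 (SE 0.13). Bnip3l reads may be shared with its processed copy Bnip3l-ps, which had at most 168 counts in a liver.

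In DKO livers the mitophagy genes did not pass either. Bnip3 had 0.11, Fundc1 0.33, Bnip3l −0.06 and Pink1 −0.11. Pink1 (ENSMUSG00000028756) had 189, 216, 220 and 226 CPM in WT, 250, 291, 225 and 222 in SKO, and 194, 206, 179 and 204 in DKO livers. Its DKO livers all lay below the SKO livers and within or under the WT range. The log2 fold change of Pink1 from SKO to DKO livers was −0.33 (SE 0.15, unadjusted p = 0.0519, edgeR BH-adjusted p = 0.764).

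**Figure D3:**
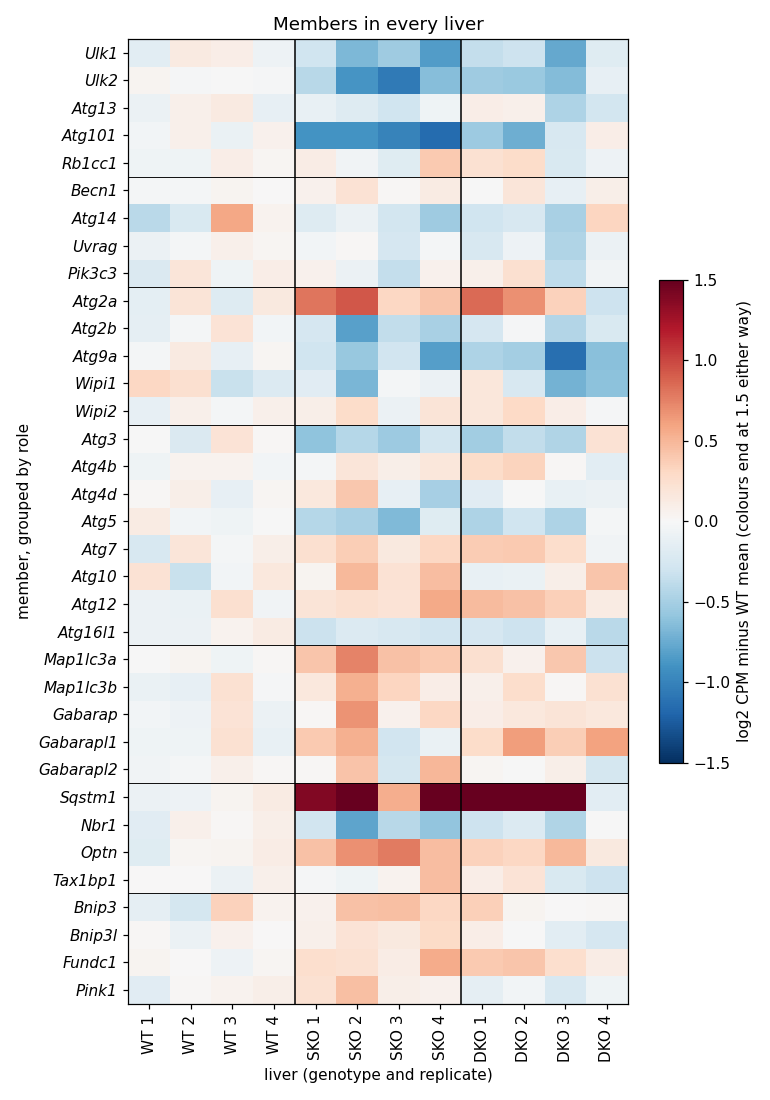
Log2(CPM + 0.5) of each member (rows, grouped by role) in each of the 12 livers (columns) minus the WT mean of that member; red is higher, blue lower, and colours end at 1.5 either way. Sqstm1 is the darkest red in the KO livers except SKO replicate 3 and DKO replicate 4, and Atg101 the darkest blue in the SKO livers except replicate 3.

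Per gene length (FPKM computed from the counts and the deposited gene lengths), the members spanned a range from 1.83 ± 0.354 for the ATG12 transfer enzyme gene Atg10 to 159 ± 17.9 for Gabarapl1 in WT livers (mean ± SD, n = 4). Below Gabarapl1 followed Sqstm1 at 128 ± 8.83, Bnip3 at 104 ± 19.5, Gabarap at 93.1 ± 9.30 and Pink1 at 79.6 ± 6.09. Livers overlapped between Sqstm1 and Bnip3 and between Bnip3 and Gabarap, and not between the other neighbours among these 5 genes. In SKO livers Sqstm1 was first at 348 ± 118, ahead of Gabarapl1 at 178 ± 47.1, and in DKO livers Sqstm1 stood at 399 ± 195 and Gabarapl1 at 220 ± 26.8. The same 5 genes held the first 5 places in each genotype. Atg101 stood in place 15 among WT, 20 among SKO and 17 among DKO means. The ULK kinase genes differed in level too, with 22.6 ± 2.20 for Ulk1 and 11.9 ± 0.257 for Ulk2 in WT livers, as did the lipid transfer genes, with 13.1 ± 1.82 for Atg2a and 4.52 ± 0.477 for Atg2b.

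**Figure D4:**
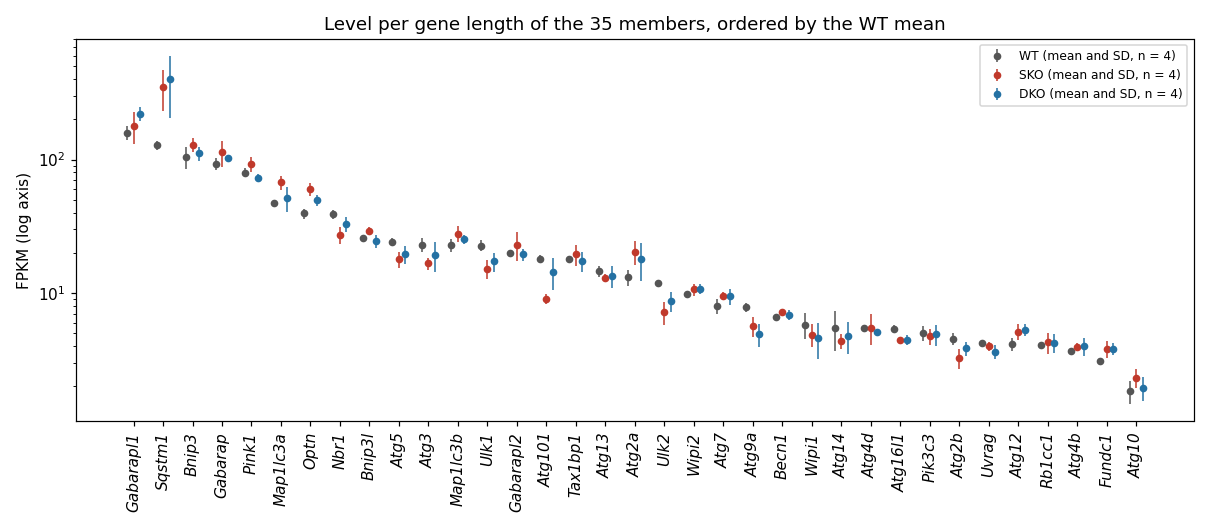
FPKM of the 35 members (log axis, mean and SD of 4 livers per genotype), ordered by the WT mean from Gabarapl1 (159) to Atg10 (1.83). Sqstm1 leaves the order of its neighbours in SKO (348) and DKO livers (399), the latter with the widest SD (195).

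Comparison of DKO with WT livers asked which of these differences were found when Atf3 was deleted together with Cpt2. The same 4 WT livers served as controls for SKO and for DKO livers. In DKO livers 2 of the 35 members (5.71%) passed an adjusted p of 0.05, against 10.5% of all genes. Sqstm1 was higher (1 member, against 6.06% of all genes higher) and Atg9a lower (1 member, against 4.39% lower). Ulk2, at −0.45 (SE 0.13, edgeR BH-adjusted p = 0.0587), and Gabarapl1 came next. The median over the members was −0.02 and over all genes 0.03. Leaving out DKO replicate 4 changed the count to 13 members (37.1%), where 35.9% of all genes passed, with 6 higher against 18.4% and 7 lower against 17.5%. Leaving out any other liver, WT or DKO, left 0 members past the threshold, where 1.63 to 4.81% of all genes passed. Across those 7 fits the log2 fold change of Sqstm1 was 1.49 to 1.69 with edgeR BH-adjusted p-values of 0.0742 to 0.0960, and that of Atg9a −0.74 to −0.53 with 0.0518 to 0.0866.

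Without DKO replicate 4, the members that passed were the ULK complex genes Ulk1, Ulk2 and Atg101, the membrane genes Atg2a and Atg9a, the conjugation genes Atg3, Atg5, Atg7 and Atg12, the ATG8 gene Gabarapl1 and the receptor genes Sqstm1, Nbr1 and Optn. Atg12 had a log2 fold change of 0.43 (SE 0.11, edgeR BH-adjusted p = 0.00993), Atg7 of 0.35 (SE 0.11, edgeR BH-adjusted p = 0.0309) and Gabarapl1 of 0.43 (SE 0.13, edgeR BH-adjusted p = 0.0214). Atg101 stood at −0.50 (SE 0.13, edgeR BH-adjusted p = 0.0120), Ulk2 at −0.58 (SE 0.09, edgeR BH-adjusted p = 5.79e-04) and Atg2a at 0.64 (SE 0.14, edgeR BH-adjusted p = 0.00526). Map1lc3a and Atg2b did not pass in these 7 livers, with 0.26 and −0.23.

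**Figure D5:**
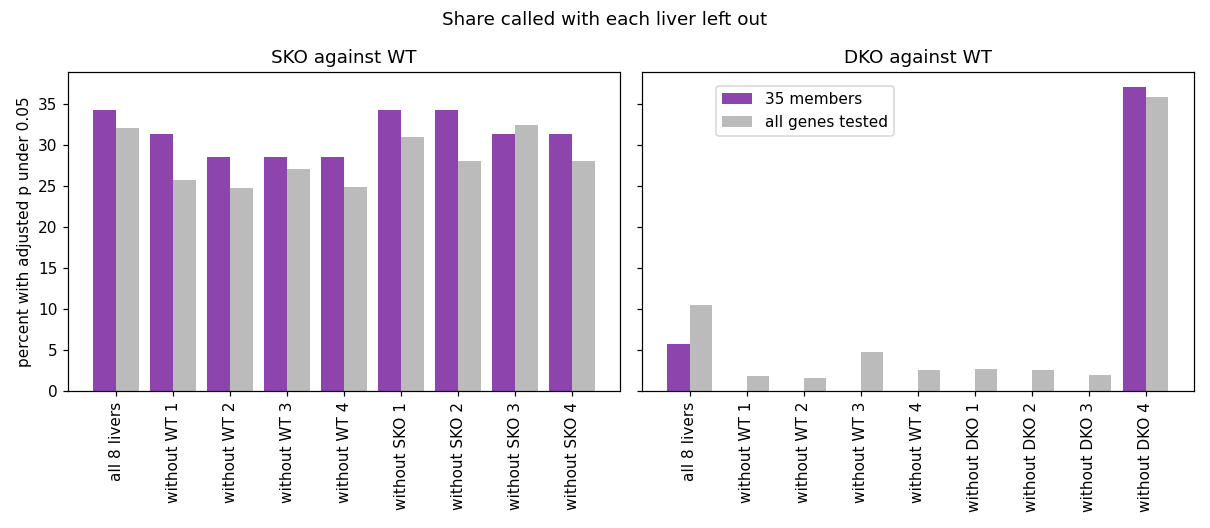
Percent of the 35 members (purple) and of all genes tested (grey) with an adjusted p under 0.05, for all 8 livers of a comparison and with each liver left out in turn (x axis); left SKO against WT, right DKO against WT. On the right, 5.71% of members and 10.5% of all genes passed with all DKO livers, and 37.1 and 35.9% without DKO replicate 4.

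Between DKO and SKO livers, which differ in the Atf3 alleles, 0 of the 35 members passed an adjusted p of 0.05 in edgeR, against 0.0209% of all genes, and 0 did in DESeq2. At an unadjusted p under 0.05, 1 member stood out in edgeR (2.86%, against 6.49% of all genes), and 3 in DESeq2 (8.57%, against 6.86% of these genes), which were Atg101, Pink1 and Map1lc3a. Groups did not overlap for 2 members (5.71%, against 4% of all genes), namely Atg101, higher, and Pink1, lower in DKO livers. The log2 fold change of Atg101 was 0.69 (SE 0.20, unadjusted p = 0.00641, edgeR BH-adjusted p = 0.507). Without DKO replicate 4 it was 0.49 with an edgeR BH-adjusted p of 0.504. The lowest DKO liver, at 17.1 CPM, lay above the highest SKO liver, at 15.3. Leaving out DKO replicate 4 could not change that gap, because it was the highest DKO liver for Atg101. Sqstm1 had a log2 fold change of 0.19 (SE 0.43), and without DKO replicate 4 of 0.50 (SE 0.27, edgeR BH-adjusted p = 0.771). Map1lc3a had −0.39 (SE 0.18, edgeR BH-adjusted p = 0.764). The median over the members was −0.01, against 0.01 over all genes.

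Other genes of the pathway were counted in lists made by hand, and of each list at most 3 genes a direction are named, those of smallest p-value. The shares of all genes to set beside the counts are 16.7% higher and 15.4% lower in SKO livers, 6.06 and 4.39% in DKO livers, and 18.4 and 17.5% without DKO replicate 4. Of 22 further genes of the core machinery, 3 rose and 7 fell in SKO livers, and 1 rose and 3 fell in DKO livers. Their median log2 fold change was −0.08 in SKO and −0.10 in DKO livers, against 0.03 over all genes in both. Wdr45, a WIPI relative, had 22.8 ± 2.24 CPM in WT and 35.8 ± 6.08 in SKO livers (SD, n = 4), a log2 fold change of 0.66 (SE 0.15, edgeR BH-adjusted p = 0.00469). Sh3glb1 and Atg16l2 followed with 0.51 and 0.47. Atg4a, another ATG8 protease gene, fell by 0.77 on the log2 scale, Trp53inp2, whose product binds ATG8 proteins, by 0.75 and Stx17, the SNARE of autophagosome fusion, by 0.54. In DKO livers Wdr45 had 0.47, Atg4a −0.68, Trp53inp2 −0.80 and Stx17 −0.59, all past the threshold.

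Of 16 further receptors and mitophagy factors, 15 were tested, and 6 rose and 1 fell in SKO livers. Their total of 7 became 1 without WT replicate 1, 2 or 3, became 3 without WT replicate 4 or SKO replicate 1, and 4 without SKO replicate 2, fits in which 24.8 to 31.0% of all genes passed. The median of this list was 0.19 in SKO and 0.11 in DKO livers. Phb2, an inner membrane receptor, had 0.50, the reticulophagy receptor gene Tex264 0.47, and Bcl2l13 0.46, while the ferritin receptor gene Ncoa4 had −0.61. In DKO livers Stbd1, a glycogen receptor gene, alone passed, at −0.62. Of 18 upstream regulators, 7 rose and 0 fell in SKO livers (4 and 1 without WT replicate 1 or 2), with a list median of 0.22 in SKO and 0.16 in DKO livers. Those of smallest p-value were Mtor at 1.23, the folliculin gene Flcn at 1.03 and the Rag GTPase gene Rragc at 0.71. In DKO livers Flcn (1.13) and Rragc (0.50) passed.

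Of 25 lysosome genes, 11 rose and 3 fell in SKO livers (9 in all without WT replicate 4), and 3 rose in DKO livers, with medians of 0.20 and 0.17. The acid lipase gene Lipa had 206 ± 16.2 CPM in WT and 443 ± 43.4 in SKO livers (SD, n = 4), a log2 fold change of 1.12, and was followed by the cathepsin gene Ctsz (0.91) and the hexosaminidase gene Hexa (0.86). The major lysosomal membrane protein genes fell, Lamp2 by 0.64 and Lamp1 by 0.33 on the log2 scale. Atp6v0d2, a proton pump subunit gene of low level, fell from 2.61 ± 0.758 to 0.0996 ± 0.0895 CPM. In DKO livers Ctsz (0.90), Hexa (0.85) and Ctsa (0.50) passed. Without DKO replicate 4 the counts in DKO livers were 4 higher and 6 lower for the core machinery, 4 and 2 for receptors, 7 and 1 for regulators and 9 and 5 for lysosome genes. Without any other liver they were 0 for the core machinery and the receptors, 1 for the regulators and 1 or 2 for the lysosome genes. Between DKO and SKO livers 0 genes of the 4 lists passed.

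Markers of other liver cells were read beside these results. No list had a marker at 0 in all livers. The summed CPM of 8 macrophage markers was 194 to 390 (WT), 190 to 451 (SKO) and 117 to 389 (DKO), where 389 was DKO replicate 4. In DKO replicates 1 to 3, Clec4f, Csf1r, Cd5l, Vsig4 and Marco were below each WT liver. There Cd68 was above each WT liver, and Adgre1 and Itgam overlapped the WT livers. Of these markers, Cd68, a lysosomal membrane protein gene, rose from 5.68 to 11.1 CPM in WT to 24.2 to 54.2 in SKO livers (log2 fold change 2.28, SE 0.28, edgeR BH-adjusted p = 1.07e-04) and the other 6 tested did not pass. In DKO livers Cd68 did not pass (1.09, SE 0.34, edgeR BH-adjusted p = 0.0690), while Marco fell by 1.95 on the log2 scale (edgeR BH-adjusted p = 0.0288), and 6 of the 7 markers tested had negative values. From SKO to DKO livers all 8 had negative values, of which 0 passed and 2, Cd68 and Marco, had an unadjusted p under 0.05 in edgeR. The sum of 6 cholangiocyte markers was 28.0 to 33.6 (WT), 7.37 to 14.3 (SKO) and 9.63 to 31.8 (DKO), where 31.8 was DKO replicate 4. In DKO replicates 1 to 3, Sox9 and Spp1 were below each WT liver, and the other cholangiocyte markers overlapped the WT livers. The sum of 8 stellate cell markers was 178 to 201, 232 to 325 and 213 to 282. Hepatocyte, cholangiocyte and stellate cell sums did not overlap between WT and SKO livers, but each rested on few genes. In SKO livers 6 of the 7 hepatocyte markers had negative values, and 3 of them passed (Alb, Ttr and Cyp2e1). Apoa1 alone had a positive value, with a mean of 8363 CPM in WT and 9725 in SKO livers. Of the 4 cholangiocyte markers tested, 2 fell (Sox9 and Spp1; in DKO livers Sox9 alone), and of the 8 stellate cell markers 1 rose (Dcn). The part of these cells in the members' differences was not tested. Sums of 7 endothelial markers (190 to 413, 236 to 303 and 214 to 309 CPM) overlapped between genotypes. Erythroid markers (5 genes) summed to 111 to 242 CPM in WT livers, 149 to 511 in SKO and 121 to 685 in DKO. Of the 4 tested, 2 rose and 1 fell in SKO livers, and 0 rose and 1 fell in DKO livers. The sums of 7 lymphocyte and 5 neutrophil markers stayed at or under 5.14 and 1.77 CPM.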

How the data were processed

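Libraries of 12 mouse livers were prepared and sequenced by Novogene, and the authors deposited a table with the unscaled read count of each Ensembl gene. The submitters' processing notes name HISAT2 and the builds GRCm38 and mm10, while the gene coordinates of the file match GRCm39, so no gene coordinate is printed except for RefSeq promoters of GRCm38.p6. The counting program, its strand setting and how gene lengths were made are not given in the sources used here. Deposited FPKM and tables of the authors' own log2 fold changes and p-values were not used. Each pair of genotypes was tested with edgeR 4.0.16 (R 4.3.3, limma 3.58.1) on its 8 livers with TMM factors, filterByExpr and the two-sided quasi-likelihood test, adjusted over all genes tested, after the code had been tested on simulated data. Alternatives were DESeq2 1.42.0, RLE and upper-quartile factors, filters, 1 fit of all livers, leaving out livers and the replicate number as a block. No library was a copy of another (chi-square divided by its degrees of freedom at least 20.6 within genotypes). Members and gene lists were chosen with earlier results of these data known. All members are named, other genes of a list only past the threshold, at most 3 a direction, by smallest p-value.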

Additional observations from a re-analysis of the deposited data

Results flagged for a closer look

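Each member was looked at in each genotype for a liver far from the other 3, by the gap to its nearest neighbour as a share of the range, set against Dixon's critical value for 4 livers. Of 105 such groups 8 were past it, where chance gives about 1 in 20, or 5.25. DKO replicate 4 had 84.1 CPM of Atg3, where the other DKO livers had 50.3 to 56.0. WT replicate 3 gave 3 of the 8, with 37.5 CPM of Atg12 (others 29.7 to 30.5), 197 CPM of Gabarap (others 161 to 166) and 373 CPM of Gabarapl1 (others 295 to 306). WT replicate 1 had 73.4 CPM of Ulk2, where the others lay within 70.2 to 70.6, a small distance between nearly equal livers. SKO replicate 4 had 47.4 CPM of Atg12 (others 36.4 to 37.6), SKO replicate 2 had 93.7 CPM of Map1lc3a (others 73.5 to 76.2) and DKO replicate 1 had 298 CPM of Bnip3 (others 234 to 239). For Sqstm1 in DKO livers the gap of replicate 4 was not past the critical value.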

How the results depend on the processing

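The number of members called between SKO and WT livers, 12, stayed at 10 to 12 under all alternatives, with any 1 liver left out included, while the share of all genes called ranged from 17.2% without a filter to 34.5% with the CPM filter. Between DKO and WT livers it was 2, and became 4 with DESeq2, 13 without both livers with Xist counts (of which this comparison holds DKO replicate 4 alone, so that it is the same fit as leaving out that liver), and 1 (Atg9a) with the replicate block, where Sqstm1 had a log2 fold change of 1.47 and an edgeR BH-adjusted p of 0.0900. With 1 liver left out it ranged from 0 to 13, and was 13 only without DKO replicate 4. Between DKO and SKO livers 0 members were called under all alternatives. Genes called in all between DKO and WT livers were 1510 (10.5% of those tested, against 5.71% of members) and 2509 with DESeq2 (14.5%, against 11.4%). They were 691 with the replicate block (4.78%, against 2.86%) and 5253 without DKO replicate 4 (35.9%, against 37.1%). Without another liver they were 244 to 719 (1.63 to 4.81%, against 0% of members). Replicate numbers share no stated animal or batch, and deviations of same-numbered livers from their genotype means correlated at −0.42 to 0.15, so the block has no basis in the design. Of 226 alternatives of single members, with identical fits counted once, 199 kept the direction and side of the threshold, 27 lost the call and 0 changed direction. Other scalings moved the median of all genes by less than 0.1. Leaving out livers for the 4 pathway lists was added after seeing the data. The cause of these changes was not tested.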

Other observations

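After removal of genotype means, the members varied together from liver to liver in some pairs. Over the 595 pairs of members the median Pearson r of log2(CPM + 0.5) across the 12 livers was 0.13, with 11 pairs above 0.8 and 41 below −0.5. These are descriptions, and within each liver both members of a pair share its library, depth and scaling. The closest pair was Becn1 and Uvrag, whose products sit in the same lipid kinase complex (r = 0.90, and 0.91 without DKO replicate 4). Tax1bp1 and Fundc1 had 0.89 (0.86), Wipi2 and Atg7 0.86 (0.83), and the ULK complex genes Atg13 and Rb1cc1 0.82 (0.81), while Atg101 of the same complex had −0.66 (−0.73) with Atg13 and −0.64 (−0.75) with Rb1cc1. Opposite deviations were found for Atg101 and Atg4b, at −0.88 (−0.74), and for Ulk2 and Optn, at −0.86 (−0.82). The pair of Atg2a and Sqstm1 had 0.82 with all livers and 0.52 without DKO replicate 4.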
